A study of Mus musculus with 18 samples.

Results

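The 10 genes described here encode AP-1 subunits and other immediate early proteins, and were taken by name from the 34937 genes counted in the livers of 18 injured mice. They are Fos, Fosb and Fosl2 of the Fos family, Jun, Junb and Jund of the Jun family, the related factor Atf3, the zinc-finger factor Egr1, and Ier2 and Ier3. All 10 were measured and all 10 were among the 17789 genes that passed the filter on low counts.

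Liver mRNA was sequenced as poly-A libraries of single reads, 1 library per mouse and 3 mice per group. Liver injury was given by intraperitoneal carbon tetrachloride, a toxin that kills hepatocytes around the central vein, at 0.5 µL per g body weight in all groups. MycER is the MYC protein joined to the part of the estrogen receptor that binds hormone, which daily intraperitoneal tamoxifen (1 mg) activates. The labels put groups 1OFF, 2OFF, 3OFF and 7OFF at day 1, 2, 3 and 7 after injury with MycER not activated, group 12ON at day 12 with MycER activated, and group 12 at day 12 with MycER not activated. The design text sets 12ON against 12, and each OFF group against 12ON. The labels do not say whether MycER had been active earlier in the OFF mice, whether group 12 received tamoxifen, which promoter or cell type drives MycER, or the strain, age, sex and hour of sampling. In the OFF comparisons with 12ON, activation and the labelled day differ together and cannot be told apart.

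AP-1 is a pair of basic leucine zipper proteins. A Jun protein can pair with another Jun protein, with a Fos protein or with an ATF protein such as ATF3, whereas Fos proteins need a Jun partner. Immediate early genes are switched on within minutes of a growth factor, cytokine or stress signal without new protein synthesis, mostly through MAP kinases that act on serum response factor, its ETS partners, CREB and JUN itself. In the liver, FOS, JUN, ATF3 and EGR1 are known as early responders to partial hepatectomy and to toxic injury, and JUN is needed for normal regeneration.

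Of the 10 genes, Jun and Atf3 carried the differences between the groups. Both were several-fold higher in 12ON livers than in group 12, did not differ past the threshold from 12ON in 1OFF, 2OFF or 3OFF, and in 7OFF overlapped with group 12. Fosl2 was the 1 member that passed as lower in 12ON than in group 12. Fos and Egr1, the classical immediate early pair, passed in no comparison and varied several-fold between mice of one group. Fos passed in 7OFF against 12ON only once a term for the mitochondrial share of the counts was added.

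The promoters of Jun and Atf3, which moved together, are shown with that of Fos, which did not move with the groups. They are RefSeq windows of build GRCm38.p6, 250 bases before to 50 bases after the start of transcription, written 5′ to 3′ on the strand of the gene. Capitals mark TGANNTCA, TGACG on either strand and TATAAA. Jun lies on the minus strand at chr4:95052173-95052472, Atf3 on the minus strand at chr1:191183284-191183583 and Fos on the plus strand at chr12:85473640-85473939.
Jun: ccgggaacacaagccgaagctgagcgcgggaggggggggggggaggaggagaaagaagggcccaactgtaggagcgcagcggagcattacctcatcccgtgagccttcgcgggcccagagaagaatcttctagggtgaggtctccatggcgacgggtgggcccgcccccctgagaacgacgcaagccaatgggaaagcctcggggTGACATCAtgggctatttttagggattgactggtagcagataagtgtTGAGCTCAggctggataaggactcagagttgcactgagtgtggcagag
Atf3: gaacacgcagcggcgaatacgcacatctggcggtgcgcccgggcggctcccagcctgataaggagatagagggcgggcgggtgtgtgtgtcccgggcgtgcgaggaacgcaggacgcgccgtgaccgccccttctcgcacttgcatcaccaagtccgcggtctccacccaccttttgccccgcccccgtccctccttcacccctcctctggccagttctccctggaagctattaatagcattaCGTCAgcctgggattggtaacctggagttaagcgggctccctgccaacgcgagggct
Fos: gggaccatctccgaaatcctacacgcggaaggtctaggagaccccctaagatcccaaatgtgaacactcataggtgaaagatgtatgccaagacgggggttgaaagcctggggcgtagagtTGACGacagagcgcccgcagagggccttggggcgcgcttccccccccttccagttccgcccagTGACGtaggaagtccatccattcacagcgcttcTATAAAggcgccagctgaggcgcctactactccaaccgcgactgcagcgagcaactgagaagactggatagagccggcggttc

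TGANNTCA is the 8-base spacing of the AP-1 and CREB/ATF site, and TGACG is one arm of the cAMP response element. The Jun window held TGANNTCA 2 times, at 45 to 38 bases before the start (TGACATCA) and at 3 to 10 bases after it (TGAGCTCA), where the first transcribed base is 1. Neither of these matches held TGACG, so the motifs did not overlap. The Atf3 window held no TGANNTCA and had TGACG on the opposite strand, 7 to 3 bases before the start, where the gene strand reads CGTCA. The Fos window held TGACG at 129 to 125 and at 66 to 62 bases before the start, and TATAAA at 33 to 28 bases before it. RefSeq windows were matched for 8 of the 10 members, with TGANNTCA also in that of Jund (TGAAATCA) and TGACG also in those of Fosb and Junb. The 7-base AP-1 site TGANTCA, the E-box CACGTG, a MYC site, and the CArG box of serum response factor were in none of the 8 windows as searched. Egr1 and Ier2 had no matched window, and bases outside the windows were not searched for any member. The counted Atf3 gene reaches chr1:191218039, upstream of its window, so a start of transcription there was not covered. Of all 32851 mouse windows of the same length, 14.1% held TGANNTCA, 20.8% TGACG, 7.81% TGANTCA, 7.15% CACGTG, 1.63% a CArG box and 13.6% TATAAA, on either strand. These are matches of letters and were not tested as binding sites.

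The libraries held 23.1 to 75.3 M counts in genes and 19763 to 22315 genes with a count. Levels are given as CPM, counts scaled to a common library size, after TMM scaling, and each difference as a log2 fold change ± its standard error from edgeR's quasi-likelihood test, with p adjusted by Benjamini-Hochberg over all 17789 genes and a threshold of 0.05. The tissue label fits the markers, with Alb, Ttr and the other hepatocyte markers summing to 45180 to 152900 CPM over the libraries, but the sums of cell type markers differed between groups. The 8 hepatocyte markers summed to 45180 to 55670 CPM in 12ON and 140300 to 152900 CPM in group 12, the 8 cholangiocyte markers to 194.5 to 215.7 CPM in 12ON and 34.3 to 95.8 CPM in group 12, and the 6 sinusoidal endothelial markers to 142.8 to 156.8 CPM in 12ON and 292.9 to 331.6 CPM in group 12. No marker in these lists was at 0 in all mice of a group, and Cftr was at 0 in replicates 1 and 2 and Tff2 in replicate 1 of group 12, both in the cholangiocyte list. In bulk liver, fewer cells of a type and less RNA per cell cannot be told apart. Xist was high in 1 library of each group except 1OFF, which had none.

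A test of any difference among the 6 groups passed for 4 of the 10 members, against 50.9% of all genes. These were Jun (adjusted p = 0.000106), Atf3 (adjusted p = 8.05e-05), Fosl2 (adjusted p = 0.00962) and Fosb (adjusted p = 0.0326) in edgeR's test. The share of the variance of log2 CPM that lay between groups was 87.6% for Atf3 and 86.5% for Jun, against a median of 60.6% over all genes. It was 15.2% for Egr1, 19.6% for Jund and 25.2% for Fos.

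**Figure D1:**
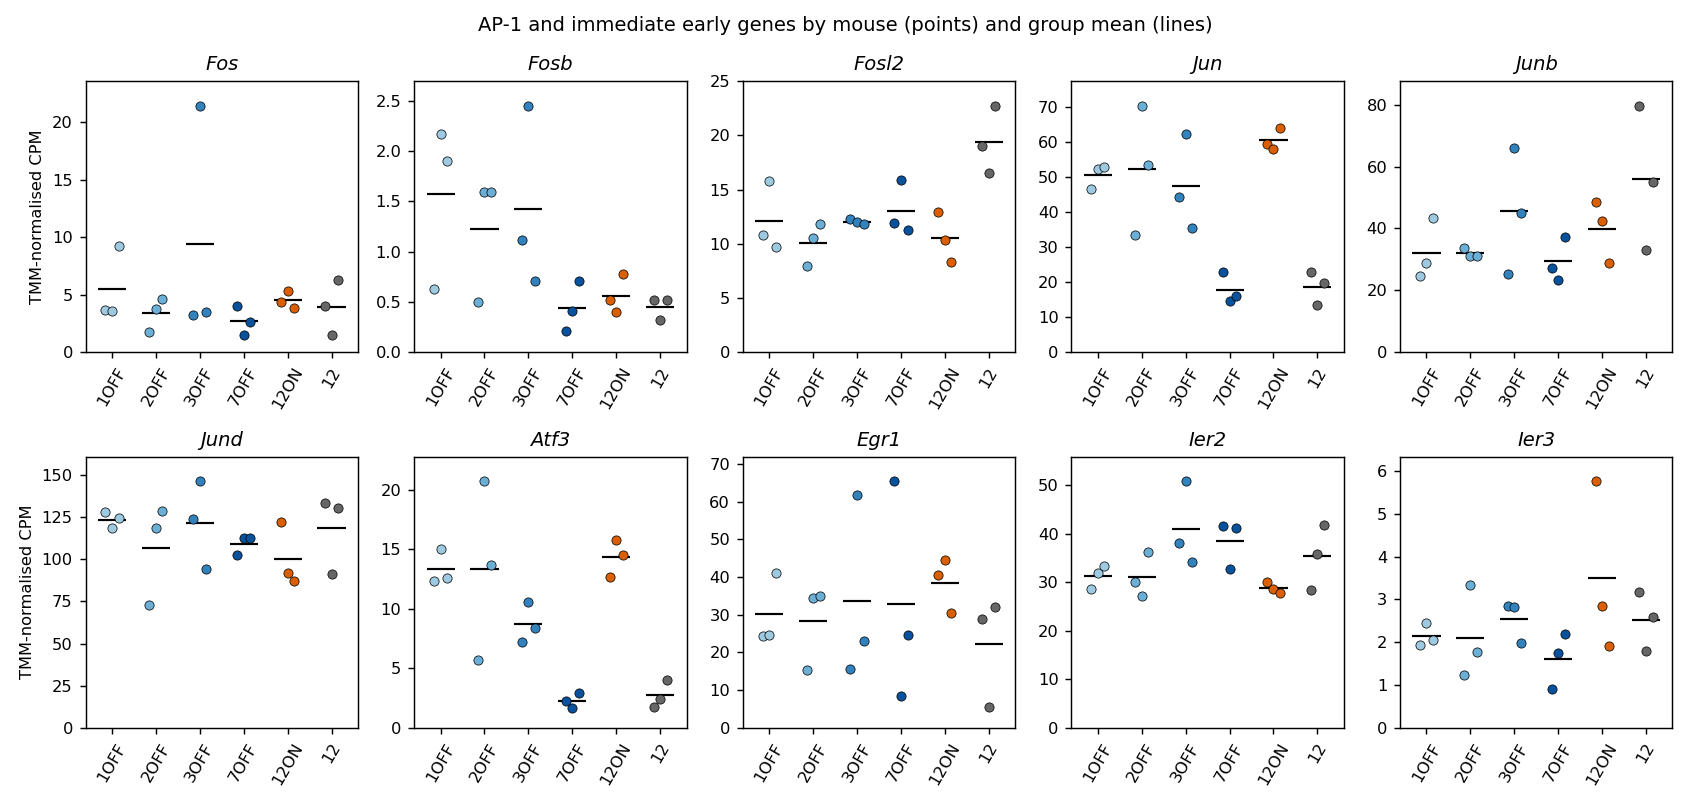
TMM-normalised CPM (linear axis from 0) of the 10 members in each mouse (points) with the mean of each group of 3 (lines), by group. Jun and Atf3 are high in 1OFF, 2OFF, 3OFF and 12ON and low in 7OFF and 12, Fosl2 is highest in group 12, and Fos has 1 mouse of 3OFF at 21.5 CPM.

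Fos encodes the founding Fos subunit, whose transcript is induced quickly and is short-lived. It had 3.68, 3.57 and 9.23 CPM in 1OFF, 1.72, 3.76 and 4.61 CPM in 2OFF, 3.18, 21.5 and 3.50 CPM in 3OFF, and 3.98, 1.47 and 2.60 CPM in 7OFF. The 12ON mice had 4.34, 5.32 and 3.83 CPM, and those of group 12 had 4.05, 1.44 and 6.25 CPM. All groups overlapped, and the 1 high mouse of 3OFF stood above all other libraries. No comparison passed, with a log2 fold change of 0.19 ± 0.69 in 12ON against 12 (adjusted p = 0.846) and 1.07 ± 0.68 in 3OFF against 12ON (adjusted p = 0.241, edgeR).

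Fosb encodes a second Fos subunit and was the least abundant member, with 6 to 129 counts per library. It had 0.629, 2.17 and 1.91 CPM in 1OFF, 0.501, 1.59 and 1.59 CPM in 2OFF, 1.12, 2.45 and 0.705 CPM in 3OFF, and 0.210, 0.406 and 0.704 CPM in 7OFF. In 12ON it had 0.517, 0.396 and 0.773 CPM, and in group 12 it had 0.519, 0.321 and 0.517 CPM. All 3 mice of 1OFF lay above the 3 of group 12, with a log2 fold change of 1.78 ± 0.61 (adjusted p = 0.0354), and 1OFF overlapped with 12ON and 7OFF. Against 12ON no OFF group passed, with 1.45 ± 0.57 in 1OFF (adjusted p = 0.252), 1.09 ± 0.57 in 2OFF (adjusted p = 0.354) and 1.35 ± 0.57 in 3OFF (adjusted p = 0.0800, edgeR). The 1OFF call against group 12 ended without any single mouse of group 12 and without replicate 2 or 3 of 1OFF (adjusted p = 0.0681 to 0.135). It also ended with a term for high Xist (1.56, adjusted p = 0.0689) or for the mitochondrial share (2.42, adjusted p = 0.0932).

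Fosl2 encodes FRA-2, a Fos subunit without the transactivation domain of FOS. It had 10.8, 15.8 and 9.68 CPM in 1OFF, 7.90, 10.5 and 11.8 CPM in 2OFF, 12.3, 12.0 and 11.8 CPM in 3OFF, and 11.9, 15.9 and 11.2 CPM in 7OFF. Levels were 12.9, 10.3 and 8.34 CPM in 12ON and 19.0, 16.6 and 22.7 CPM in group 12. Every mouse of the other 5 groups lay below the lowest of group 12. Fosl2 fell in 12ON against 12 by 0.89 on the log2 scale (± 0.21, adjusted p = 0.00254), and it was also lower than in group 12 in 1OFF (-0.68 ± 0.21, adjusted p = 0.0192), 2OFF (-0.95 ± 0.21, adjusted p = 0.00251) and 3OFF (-0.69 ± 0.21, adjusted p = 0.0310). In 7OFF the value against group 12 was -0.58 ± 0.21 (adjusted p = 0.112, edgeR). The 1OFF call ended without replicate 3 of group 12 or replicate 1 or 3 of 1OFF, and the 3OFF call without replicate 1 or 3 of group 12 or any single mouse of 3OFF (adjusted p = 0.0637 to 0.116 over both). With library totals in place of TMM, which moves the median gene in 12ON against 12 by 0.49, Fosl2 was at -0.41 there (adjusted p = 0.140), at -0.34 in 1OFF against 12 (adjusted p = 0.240) and at -0.54 in 3OFF against 12 (adjusted p = 0.115). A term for the mitochondrial share also ended the 1OFF and 3OFF calls (adjusted p = 0.108 and 0.118).

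Jun encodes c-JUN, the Jun subunit with the strongest transactivation, which is phosphorylated by JNK and acts on its own promoter. Its 1OFF mice had 46.7, 52.2 and 52.9 CPM, its 2OFF mice 33.5, 70.5 and 53.5 CPM, its 3OFF mice 44.2, 62.3 and 35.6 CPM and its 7OFF mice 22.9, 14.7 and 16.0 CPM. The mice of 12ON had 59.6, 58.2 and 64.2 CPM, and those of group 12 had 22.9, 13.4 and 19.8 CPM. Every mouse of 1OFF, 2OFF, 3OFF and 12ON was above every mouse of 7OFF and 12, and these last 2 groups overlapped. Jun rose 3.25-fold in 12ON against 12 (log2 fold change 1.70 ± 0.26, adjusted p = 0.000105) and fell in 7OFF to 0.294 of the 12ON level (-1.77 ± 0.26, adjusted p = 8.64e-05). Against group 12 it was higher in 1OFF (1.44 ± 0.26), 2OFF (1.49 ± 0.26) and 3OFF (1.34 ± 0.26), with adjusted p = 0.000563 to 0.00311 in edgeR's test.

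Against 12ON, Jun did not pass in 1OFF (-0.26 ± 0.25, adjusted p = 0.707), 2OFF (-0.21 ± 0.25, adjusted p = 0.731) or 3OFF (-0.36 ± 0.25, adjusted p = 0.303), though with library totals in place of TMM the 3OFF value was -0.68 (adjusted p = 0.0488). Across the 5 comparisons where Jun passed against 12 or 12ON, the direction and the call held without each library in turn. Its single exon (chr4:95049034-95052222, GRCm38) shares 232 bases with the antisense gene Junos, and as reads were counted without strand the reads of both there cannot be told apart. Junos had 3330 counts over all 18 libraries, against 417 to 3404 counts of Jun in each.

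Junb encodes a Jun subunit with weaker activation than c-JUN. It had 24.5, 28.7 and 43.3 CPM in 1OFF, 33.7, 31.0 and 31.1 CPM in 2OFF, 25.3, 66.1 and 45.0 CPM in 3OFF, and 27.2, 23.5 and 37.2 CPM in 7OFF. Its levels were 48.5, 42.4 and 28.9 CPM in 12ON, and in group 12 they were 79.7, 33.1 and 54.9 CPM. Neighbouring groups overlapped, and group 12 had both the highest mean and the widest range. No comparison passed, the nearest being 2OFF against 12 (-0.80 ± 0.34, adjusted p = 0.0792) and 1OFF against 12 (-0.80 ± 0.34, adjusted p = 0.0840, edgeR). Both passed without replicate 2 of group 12 (-1.07 in each, adjusted p = 0.0277 and 0.0299), and the 1OFF one without replicate 3 of 1OFF (-1.07, adjusted p = 0.0459).

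Jund encodes the Jun subunit that is present in resting cells. It was the most abundant member in every group, at means of 100.5 to 123.7 CPM, or 34.9 to 43.0 CPM per kb of exon. Its mice had 127.9, 118.4 and 124.8 CPM in 1OFF, 72.6, 118.9 and 128.5 CPM in 2OFF, 123.9, 146.4 and 94.3 CPM in 3OFF, and 102.5, 112.5 and 112.6 CPM in 7OFF. They had 122.3, 92.2 and 86.9 CPM in 12ON, and 133.6, 91.2 and 130.8 CPM in group 12. Groups that were neighbours in the order of the means overlapped, and the lowest and highest libraries were replicate 1 of 2OFF and replicate 2 of 3OFF. No comparison passed, with values of -0.24 ± 0.21 in 12ON against 12 (adjusted p = 0.367) and 0.12 ± 0.21 in 7OFF against 12ON (adjusted p = 0.671, edgeR). Its single exon (chr8:70697739-70700616, GRCm38) shares 543 bases with the antisense gene Gm11175, which had 30891 counts over all libraries, and reads of the pair in those bases cannot be told apart.

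Relative to each other, the Jun genes shifted with the groups. On counts per kb of exon, Jun made up 20.8% ± 1.36 of the 3 Jun genes in 1OFF, 22.8% ± 4.23 in 2OFF, 18.1% ± 1.67 in 3OFF, 9.47% ± 2.60 in 7OFF, 25.6% ± 4.61 in 12ON and 7.61% ± 0.186 in group 12 (SD, n = 3 each). The lowest share in 12ON was 21.4%, against a highest of 7.79% in group 12. Jund held the largest mean share in all 6 groups, 64.0% ± 4.60 in 7OFF, 46.0% ± 2.44 in 12ON and 54.2% ± 5.65 in group 12. The shares of Jund and Jun include reads that cannot be told apart from those of Gm11175 and Junos. Such shares do not depend on how libraries are scaled, and no test was run on them. Among Fos, Fosb and Fosl2, without Fosl1 (0.104 to 0.448 CPM per library), Fosl2 made up 34.4% ± 5.03 in 12ON and 56.0% ± 13.3 in group 12, and Fosb made up at most 15.5% in any mouse.

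**Figure D2:**
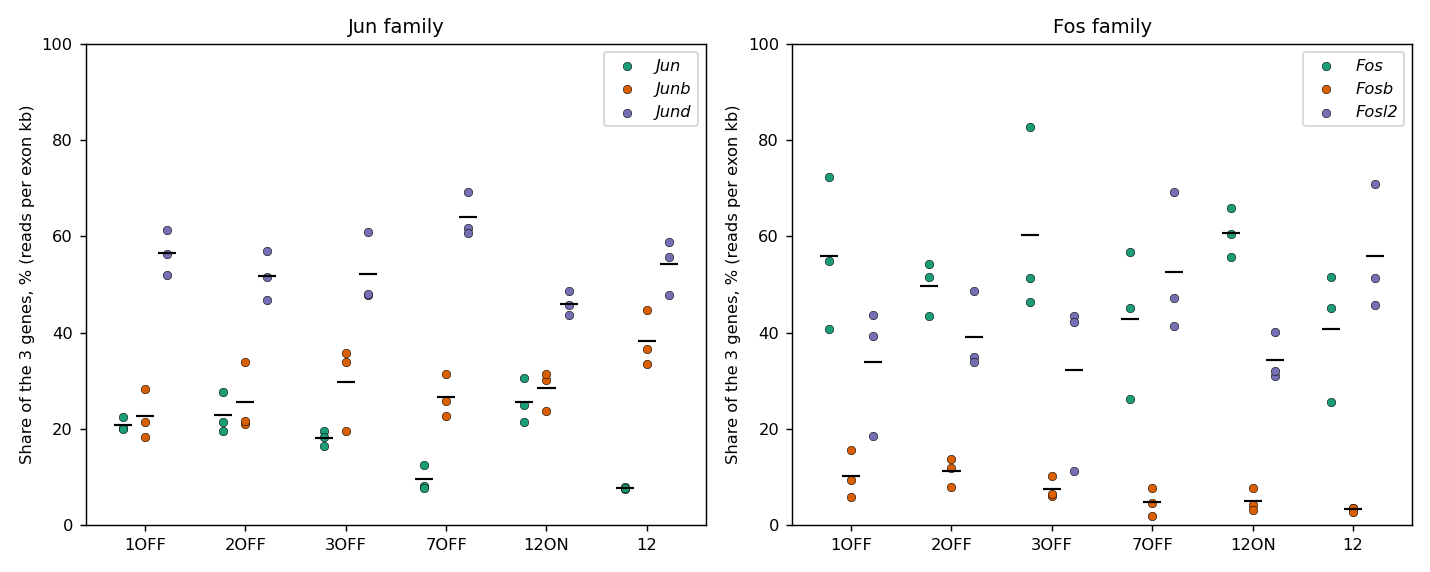
Share of each gene among Jun, Junb and Jund (left) and among Fos, Fosb and Fosl2, without Fosl1 (right), in percent of counts per kb of exon, for each mouse (points) with group means (lines), by group. The Jun share lies at 16.3% or above in every mouse of 1OFF, 2OFF, 3OFF and 12ON, and at 12.5% or below in every mouse of 7OFF and 12.

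Atf3 encodes a stress-induced factor of the ATF/CREB family that can pair with Jun proteins. It had 12.3, 15.1 and 12.6 CPM in 1OFF, 5.66, 20.7 and 13.7 CPM in 2OFF, 7.24, 10.6 and 8.40 CPM in 3OFF, and 2.27, 1.67 and 2.91 CPM in 7OFF. In 12ON it had 12.7, 15.8 and 14.5 CPM, and in group 12 it had 1.76, 2.38 and 4.03 CPM. The highest mouse of 7OFF and 12 was below the lowest of the other 4 groups, and 3OFF lay below 12ON in every mouse. Atf3 rose 5.10-fold in 12ON against 12 (log2 fold change 2.35 ± 0.38, adjusted p = 0.000145), the largest change of the 10 members there, and fell in 7OFF to 0.159 of the 12ON level (-2.65 ± 0.38, adjusted p = 6.95e-05).

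Against group 12, Atf3 was higher in 1OFF (2.25 ± 0.38, adjusted p = 0.000445), 2OFF (2.24 ± 0.38, adjusted p = 0.000415) and 3OFF (1.64 ± 0.38, adjusted p = 0.00837) in edgeR's test. Against 12ON it stood at -0.11 ± 0.35 in 1OFF (adjusted p = 0.927), -0.11 ± 0.35 in 2OFF (adjusted p = 0.917) and -0.71 ± 0.35 in 3OFF (adjusted p = 0.134). The 3OFF value passed when those 2 groups were fitted alone (-0.71, adjusted p = 0.0121) and with library totals in place of TMM (-1.04, adjusted p = 0.0385). No call of Atf3 against 12 or 12ON was lost by leaving out 1 library.

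Egr1 encodes a zinc-finger transcription factor that serum response factor and its ETS partners induce. It had 24.5, 24.7 and 41.1 CPM in 1OFF, 15.4, 34.6 and 34.9 CPM in 2OFF, 15.7, 61.8 and 23.1 CPM in 3OFF, and 65.4, 8.48 and 24.5 CPM in 7OFF. Livers of 12ON had 40.7, 44.5 and 30.4 CPM, and those of group 12 had 28.9, 5.39 and 32.2 CPM. All groups overlapped, and the highest mouse of 7OFF held 7.72 times the CPM of the lowest. No comparison passed, with 0.80 ± 0.68 in 12ON against 12 (adjusted p = 0.355) and -0.24 ± 0.67 in 7OFF against 12ON (adjusted p = 0.801, edgeR).

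Ier2 encodes a small nuclear immediate early protein and was the steadiest member, with a biological coefficient of variation of 0.144 against a median of 0.155 over all genes. It had 28.6, 31.9 and 33.4 CPM in 1OFF, 30.0, 27.2 and 36.3 CPM in 2OFF, 38.2, 50.8 and 34.2 CPM in 3OFF, and 41.6, 32.8 and 41.2 CPM in 7OFF. In 12ON it had 30.0, 28.6 and 27.7 CPM, and in group 12 it had 28.5, 35.8 and 41.7 CPM. The mice of 3OFF and 7OFF all lay above those of 12ON, whereas group 12 overlapped with every other group. Ier2 was higher in 3OFF than in 12ON (0.51 ± 0.16, adjusted p = 0.0215) and higher in 7OFF than in 12ON (0.42 ± 0.16, adjusted p = 0.0415). With library totals in place of TMM these stood at 0.19 (adjusted p = 0.379) and 0.00 (adjusted p = 1.00, edgeR). The 3OFF call ended without replicate 2 or 3 of 12ON or replicate 2 of 3OFF (adjusted p = 0.0698 to 0.129). The 7OFF call ended without any single mouse of 12ON and without replicate 1 or 3 of 7OFF (adjusted p = 0.0749 to 0.125). It also ended with a term for the mitochondrial share (0.26, adjusted p = 0.273) and without the filter on low counts (0.41, adjusted p = 0.0571, edgeR).

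Ier3 encodes a stress-inducible protein that acts in survival signalling. It had 1.94, 2.45 and 2.06 CPM in 1OFF, 1.23, 3.33 and 1.76 CPM in 2OFF, 2.84, 2.84 and 1.98 CPM in 3OFF, and 0.908, 1.74 and 2.18 CPM in 7OFF. In 12ON it had 5.76, 2.84 and 1.91 CPM, and in group 12 it had 3.17, 1.80 and 2.59 CPM. The groups overlapped, and replicate 1 of 12ON was the highest library. Ier3 was lower in 7OFF than in 12ON (-1.11 ± 0.42, adjusted p = 0.0434), but without replicate 1 of 12ON the value was -0.56 (adjusted p = 0.296). Without replicate 2 of 12ON or replicate 1 or 2 of 7OFF the call also ended (adjusted p = 0.0502 to 0.155). It ended too with the 2 groups fitted alone (adjusted p = 0.101), and with a term for the mitochondrial share (adjusted p = 0.0820) or for high Xist (adjusted p = 0.0538, edgeR).

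The calls of the members can be set beside those of all genes. In 12ON against 12, 2 members rose (Jun and Atf3) and 1 fell (Fosl2), where 24% of all genes passed as higher and 22.6% as lower. In 1OFF and 2OFF against 12ON no member passed, and across all genes 0.00562% passed as higher and 0% as lower in 1OFF, with 0% in either direction in 2OFF. For those comparisons 2568 and 3039 of all genes passed 0.05 without adjustment in edgeR, and DESeq2 called 526 and 953, and Fosb in 1OFF was the 1 member with an unadjusted value under that limit (0.0217 in edgeR's test). In 3OFF against 12ON 1 member was higher (Ier2) and none lower, against 15.3% higher and 17% lower of all genes. In 7OFF against 12ON 1 was higher (Ier2) and 3 were lower (Jun, Atf3, Ier3), against 21.4% and 22.7% of all genes.

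Set against group 12 rather than 12ON, 1OFF had calls in 4 members, of which 3 were higher (Jun, Atf3, Fosb) and 1 lower (Fosl2), where 17.1% and 16.3% of all genes were. In 2OFF against 12, 2 were higher and 1 lower, against 18.1% and 17%, and in 3OFF against 12 also 2 and 1, against 9.47% and 7.95%, each time Jun and Atf3 higher and Fosl2 lower. In 7OFF against 12 no member passed, against 2.47% and 3.31% of all genes, and Fosl2 (adjusted p = 0.112) and Junb (adjusted p = 0.123, edgeR) came nearest to the threshold. In 7OFF against 1OFF 3 members were lower (Atf3 at -2.54 ± 0.38, Jun at -1.51 ± 0.26 and Fosb at -1.77 ± 0.59) and none higher, against 15.8% lower and 14.8% higher of all genes. The 4 OFF comparisons share the 12ON mice, and the comparisons with group 12 share those of group 12.

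**Figure D3:**
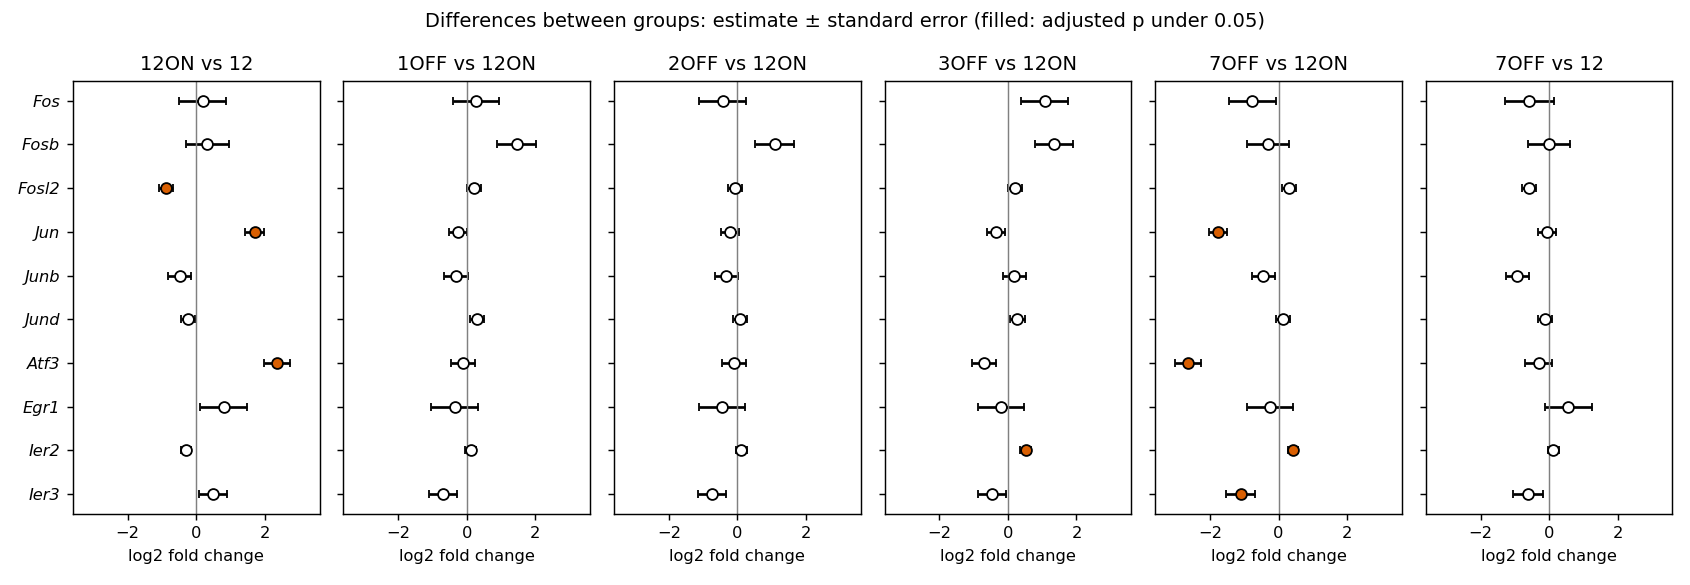
Log2 fold change of each member (point) with its standard error (bar) in 6 comparisons, positive where the first group named is higher, filled where the adjusted p is under 0.05. Jun and Atf3 are at 1.70 and 2.35 in 12ON against 12, and at -1.77 and -2.65 in 7OFF against 12ON.

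Genes that act with the members were taken from lists, whose counts in 12ON against 12 are read against the 24% of all genes that were higher and the 22.6% that were lower. Of 12 other AP-1 family genes 2 were higher, Mafg (0.53 ± 0.15) and Fosl1 (1.18 ± 0.41), and 3 lower, among them Maf (-0.98 ± 0.15) and Batf (-1.13 ± 0.28), with a median of -0.02 against 0.00 over all genes. Fosl1, also in the list of other immediate early genes, encodes the Fos subunit FRA-1, and Maf encodes a large Maf factor. Fosl1 lost the call without replicate 1, 2 or 3 of group 12 or replicate 3 of 12ON (adjusted p = 0.0592 to 0.108). For 7OFF against 12ON the same list had 1 higher, Maf (0.54 ± 0.15), and 1 lower, Mafk (-0.41 ± 0.12), with a median of 0.02. The Mafk call ended without replicate 2 of 7OFF (adjusted p = 0.0538). Without replicate 2 or 3 of 7OFF 2 genes of the list were higher there, and without replicate 1 of 7OFF 2 were lower.

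Of 38 tested genes among 39 other immediate early genes, 11 were higher and 8 lower in 12ON against 12, with a median of 0.12, counts near the shares over all genes. With a term for the mitochondrial share they were 5 and 1, and the calls over all genes fell from 8298 to 4117. The higher ones with the smallest p were Klf6 (1.66 ± 0.18), a zinc-finger factor, Arc (2.92 ± 0.49) and the polo-like kinase gene Plk2 (1.40 ± 0.30). Arc, known from neurons, was at 3.61 without replicate 3 of group 12. It rests on few reads, with 0.0519, 0.0963 and 0.194 CPM in group 12 and 1.03, 1.23 and 0.717 CPM in 12ON. The lower ones were Gadd45a (-0.93 ± 0.19), Nfkbiz (-1.06 ± 0.22) and Socs3 (-1.86 ± 0.40), which encodes an inhibitor of cytokine signalling. Without replicate 2 of group 12 the count of higher genes was 6. Of these genes 4 were higher and 8 lower in 7OFF against 12ON, with a median of -0.14, beside 21.4% and 22.7% of all genes. With library totals, which put the median gene there at -0.41, these counts were 0 and 15. With the mitochondrial term 1 was higher, where the calls over all genes fell from 7833 to 5938. Without replicate 2 of 12ON or replicate 1 of 7OFF, 2 were higher. Klf6 had 18.3, 15.4 and 24.9 CPM in 7OFF, 62.8, 60.3 and 59.8 CPM in 12ON, and 18.2, 18.2 and 21.5 CPM in group 12. Gadd45b (-2.41 ± 0.38) and Egr2 (-2.43 ± 0.46) were also lower in 7OFF than in 12ON, while Klf2 (1.03 ± 0.28), Klf4 (0.98 ± 0.28) and Csrnp1 (1.04 ± 0.30) were higher. Those last 3 calls each ended without replicate 1 of 7OFF (adjusted p = 0.0698, 0.0750 and 0.0817), and that of Csrnp1 also without replicate 2 of 12ON (adjusted p = 0.0622).

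Of 31 kinases, phosphatases and factors upstream of AP-1, 8 were higher and 8 lower in 12ON against 12. Their median was -0.02, and the counts were again near the shares over all genes. With the mitochondrial term they were 3 and 2, where the calls over all genes fell from 8298 to 4117. Map3k1 (1.15 ± 0.19), which encodes a kinase that leads to JNK, and Mrtfb (0.80 ± 0.13), a partner of serum response factor, were higher, as was the MAP kinase phosphatase gene Dusp8 (1.65 ± 0.33). Map3k7 (-0.41 ± 0.07), Spry4 (-1.51 ± 0.31) and Map2k4 (-0.37 ± 0.09) were lower, and Map2k4 encodes a kinase that phosphorylates JNK. Of the list 10 were higher in 7OFF against 12ON, among them Map3k7 (0.59 ± 0.07) and Spry4 (1.93 ± 0.31), and 6 lower, among them Map3k1 (-0.80 ± 0.18) and Mrtfb (-0.59 ± 0.12), with a median of -0.02. With library totals the split there was 1 higher and 16 lower, so it depends on the scaling. The count of higher genes was 5 in 12ON against 12 without replicate 2 of group 12, and 5 in 7OFF against 12ON without replicate 2 of 12ON. These are transcripts, and the activity of the kinases was not measured.

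Of 22 textbook AP-1 targets 18 were tested. In 12ON against 12, 5 were higher and 4 lower, with a median of 0.01. With the mitochondrial term they were 3 and 1, where the calls over all genes fell from 8298 to 4117. In 7OFF against 12ON, 1 was higher and 10 lower, with a median of -0.90 against 0.01 over all genes, of which 22.7% were lower. Mmp13, a collagenase gene with an AP-1 site, had 0.664, 0.857 and 0.774 CPM in 7OFF, 6.08, 3.52 and 5.58 CPM in 12ON, and 0.311, 0.321 and 0.603 CPM in group 12. Its log2 fold change was -2.71 ± 0.46 in 7OFF against 12ON (adjusted p = 0.000221) and 3.54 ± 0.50 in 12ON against 12 (adjusted p = 4.31e-05, edgeR). Lif, a cytokine gene, stood at -3.10 ± 0.53 in 7OFF against 12ON and at 3.01 ± 0.54 in 12ON against 12. Its levels were low, with means of 0.215 CPM in 7OFF, 1.96 CPM in 12ON and 0.247 CPM in group 12. Vegfa, the vascular growth factor gene, was the 1 higher in 7OFF against 12ON (1.30 ± 0.16) and among the 4 lower in 12ON against 12 (-1.54 ± 0.16). In 7OFF against 12, 0 targets were higher and 4 lower, with a median of -0.61 against 0.02 over all genes. There 2.47% of all genes were higher and 3.31% lower. The count of targets in 7OFF against 12 was not checked under other processing.

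The heat shock genes, a stress response outside AP-1, had 4 of 10 higher and none lower in 12ON against 12. Hspd1 (0.94 ± 0.11), Hspa8 (0.75 ± 0.13) and Hsp90aa1 (1.15 ± 0.23) were foremost, and the median was 0.35. Means in 12ON and group 12 were 2.90 and 2.71 CPM for Hspa1a, 4.96 and 3.98 CPM for Hspa1b, and 6.57 and 5.11 CPM for Hspb1. Between 7OFF and 12ON 3 were lower in 7OFF, led by Hspd1 (-0.82 ± 0.11) and Hsp90aa1 (-1.15 ± 0.23), and 3 higher, Hspa1a (1.02 ± 0.36), Hspb1 (1.00 ± 0.38) and Hspa1b (1.04 ± 0.40), with a median of 0.30. All 3 higher calls ended without replicate 1 of 7OFF (0.20, 0.52 and 0.15), and each also ended when certain other libraries were left out.

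Cell type markers moved in the same comparisons. In 12ON against 12, 1 hepatocyte marker of 8 was higher and 7 lower, all 8 cholangiocyte markers were higher, 4 of 8 stellate cell and myofibroblast markers were higher, all 6 sinusoidal endothelial markers were lower, 4 of 6 Kupffer cell markers were lower, 3 of 6 lymphocyte markers were lower, and of 8 monocyte and macrophage markers 1 was higher and 3 lower. In 7OFF against 12ON, 7 hepatocyte markers were higher, 8 cholangiocyte markers lower, 5 sinusoidal endothelial markers higher, 3 stellate cell and myofibroblast markers lower, 3 monocyte and macrophage markers lower, 1 Kupffer cell marker lower and 2 lymphocyte markers higher. No neutrophil marker of 8 passed in either. In 7OFF against 12, 5 of 8 monocyte and macrophage markers and 3 of 6 Kupffer cell markers were lower. There 1 hepatocyte and 1 cholangiocyte marker were higher, and no other listed marker passed. Spp1 is both an AP-1 target and a cholangiocyte marker in these lists. The mitochondrial share of the counts also differed between the groups, lying between 6.16% and 7.33% in the 1OFF mice, between 6.69% and 7.00% in the 2OFF mice, and between 5.36% and 7.18% in the 3OFF mice. The range was 5.54% to 6.19% for 7OFF, 6.42% to 7.11% for 12ON and 4.80% to 5.25% for group 12. With a term for it, Jun stood at 2.10 (adjusted p = 0.00131) and Atf3 at 2.38 (adjusted p = 0.00781) in 12ON against 12, and in 7OFF against 12ON both were still lower (adjusted p = 0.000248 for Jun and 0.000568 for Atf3, edgeR). The part of cell makeup in the values of Jun, Atf3 and the AP-1 targets was not tested.

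Jun and Atf3 followed each other over the 18 libraries, with r = 0.937 on log2 CPM, and r = 0.564 once each group's mean was taken out. The genes most like Atf3 were Uap1l1 (r = 0.969), Cdc42se1 (r = 0.968) and Klf6 (r = 0.966). Those most like Jun were its antisense gene Junos (r = 0.976), with which it shares reads, Cln6 (r = 0.947) and Cdk6 (r = 0.946). Members were left out of this search, and the r of Fos with Egr1 was 0.799. Values were lower for the members that varied between mice, with Il1b (r = 0.745) and Rgs1 (r = 0.741) nearest to Fos, and Atxn3 (r = 0.797) to Egr1. S1pr2 was nearest to Fosb (r = 0.806), Znrd1 to Fosl2 (r = 0.848), Adam17 to Junb (r = 0.772), Gm11175 to Jund (r = 0.984, sharing reads), Ttc17 to Ier2 (r = 0.832) and Bcl10 to Ier3 (r = 0.750). The 18 points share their groups, libraries and scaling, so these values are a description.

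Within groups, the members differed widely in how much mice of one group varied. Fos and Egr1 had biological coefficients of variation of 0.561 and 0.559, above those of 97.6% of genes each, and Fosb had 0.465. Taken as deviations from the group mean over the 18 libraries, Fos and Egr1 had r = 0.884, Jun and Egr1 r = 0.792, and Fos and Jun r = 0.764. Replicate 2 of 3OFF was the highest of its group for 8 of the 10 members (31.0% of all genes), replicate 1 of 2OFF the lowest for 8 (30.6% of all genes), and replicate 2 of group 12 the lowest for 8 (35.3% of all genes).

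The mitochondrial share was 5.36% in replicate 2 of 3OFF, against 6.91% and 7.18% in its group, and 4.80% in replicate 2 of group 12, against 5.25% and 5.19%. Replicate 1 of 2OFF was the deepest library and had high Xist. The hour of sampling is not in the labels. The part of these in the spread of the members was not tested.

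**Figure D4:**
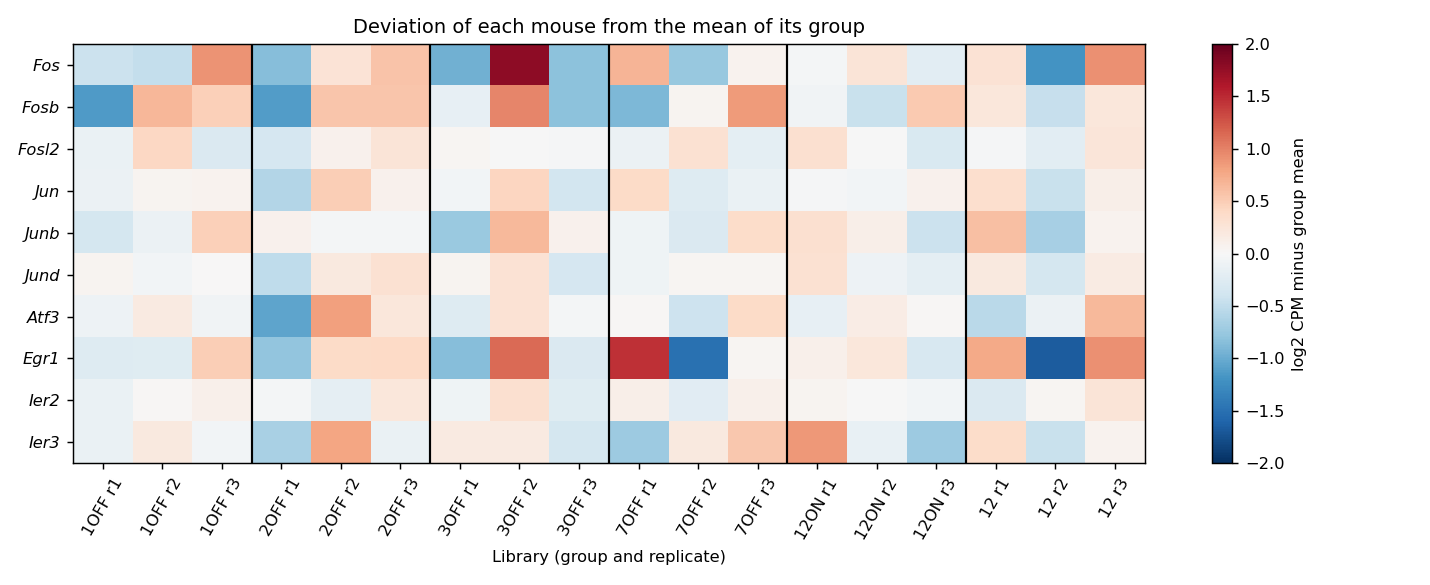
Deviation of each mouse (columns, group and replicate) from its group's mean log2 CPM for each member (rows), red where above and blue where below the mean. Replicate 2 of 3OFF is above its group's mean and replicate 1 of 2OFF and replicate 2 of group 12 are below theirs for most members.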

How the data were processed

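Poly-A RNA of 18 mouse livers was sequenced as single 50-base reads. The submitters' processing notes name Trim Galore, TopHat2 and the build mm10. The deposited values are raw counts per gene from featureCounts 1.5.0-p1 on Ensembl 82 exons (GRCm38), per the file headers, unstranded, at 10 or more overlapping bases, with reads assigned to each overlapped gene.

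Symbols were matched for 34599 of 34937 genes. Genes were filtered with filterByExpr at a minimum count of 10, scaled by TMM and fitted over all 18 libraries with edgeR 4.0.16 (R 4.3.3) in 1 quasi-likelihood model of 6 groups with 12 residual degrees of freedom and a common biological coefficient of variation of 0.202, after the script was tested on simulated data. Tests were two-sided with Benjamini-Hochberg adjustment over all 17789 genes. The standard error is the log2 fold change over the root of F. Likeness between genes used log2 CPM with a prior count of 2 and genes with a mean of at least 4 CPM. The replicates are separate mice by the design text, and no pair of libraries of a group agreed within sampling noise.

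The members and lists were chosen with earlier results of these data known. All members are named. Of each list up to 3 genes per direction with the smallest p in 12ON against 12 and in 7OFF against 12ON could be named, and 1 gene that the rule names is not reported here. Alternatives were RLE scaling, library totals, no filter, DESeq2 1.42.0, the compared groups alone, a replicate block, terms for high Xist and the mitochondrial share, and leaving out each library. Their use on the counts of the lists was added after the data were seen. Deviations of same-numbered libraries from their group means correlated at -0.18 to 0.334 over 45 pairs, 12 of them above 0.1. Between 1OFF and 2OFF the values were 0.0776, 0.228 and 0.334. As the same-numbered libraries did not deviate together across all groups, the numbers were not taken as pairs.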

Additional observations from a re-analysis of the deposited data

Results flagged for a closer look

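For 3 of the members the effect of the OFF groups against 12ON was not the same on day 7 as on day 1, by the direct test of 7OFF against 1OFF in edgeR. All 3 were lower in 7OFF, in a comparison where 15.8% of all genes passed as lower and 14.8% as higher. Atf3 differed by -2.54 on the log2 scale (± 0.38, adjusted p = 0.000288), with all 3 mice of 7OFF below all 3 of 1OFF. Jun differed by -1.51 (± 0.26, adjusted p = 0.000731), again with no overlap. Fosb differed by -1.77 (± 0.59, adjusted p = 0.0338), with overlapping groups, and its call ended without replicate 2 or 3 of 1OFF or replicate 1 or 2 of 7OFF (adjusted p = 0.0842 to 0.130). The Fosb call also ended with a term for high Xist (-1.54, adjusted p = 0.0726) and with the 2 groups fitted alone (-1.78, adjusted p = 0.0597).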

How the results depend on the processing

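Alternatives moved no member across 0 past the threshold. Leaving out 1 library at a time, the count of members past the threshold lay between 3 and 4 in 12ON against 12 (3 in the results), 0 and 1 in 3OFF against 12ON (1), 2 and 3 in 7OFF against 12ON (4), 2 and 4 in 1OFF against 12 (4), 3 and 4 in 2OFF against 12 (3), 2 and 3 in 3OFF against 12 (3), 2 and 3 in 7OFF against 1OFF (3), and 2 and 5 for any difference among the groups (4). With library totals in place of TMM, and with the 2 groups alone, 2 members passed in 3OFF against 12ON. With a term for the mitochondrial share, 2 passed in 1OFF against 12, 1 in 3OFF against 12 and 2 for any difference. Over all genes, this term took the calls from 5939 to 1847 in 1OFF against 12 and from 3099 to 731 in 3OFF against 12. DESeq2 called 5 in 2OFF against 12. Atf3 in 3OFF against 12 lost its call with the mitochondrial term (1.66, adjusted p = 0.0691). The causes were not tested.

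Under library totals the median gene moved by 0.49 in 12ON against 12 and by -0.41 in 7OFF against 12ON, and 19 of 100 fold changes of members had the other sign, against 1 with RLE scaling. With library totals, 6 of 12 AP-1 family genes, 19 of 38 other immediate early genes and 19 of 31 upstream genes were higher in 12ON against 12, and 1, 2 and 1 lower. In 7OFF against 12ON they gave 0, 0 and 1 higher and 5, 15 and 16 lower, and no heat shock gene was higher. The shares of all genes called under library totals were not counted, so these counts cannot be read as particular to the lists. In the fit with a replicate block, 98 of 100 calls stood on the same side of the threshold. Fosb in 3OFF against 12 passed (1.70, adjusted p = 0.0443) and Ier3 in 7OFF against 12ON did not (-1.07, adjusted p = 0.0674). With the block 439 genes passed in 2OFF against 12ON and 18 in 1OFF, against 0 and 1 without it. Fosb and Ier3 rest on few reads, 6 to 129 and 26 to 312 counts per library.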
